A study of Bos taurus with 9 samples.

Results

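The data were the peaks of RNA polymerase II (Pol II) found by chromatin immunoprecipitation sequencing (ChIP-seq) in MDBK cells, an established line of bovine kidney epithelial cells, with and without butyrate. Both Pol II lists were taken whole, and they held 87480 of the 673926 peaks of the 8 ChIP libraries of the experiment. The control library came from untreated cells and held 56240 Pol II peaks. The butyrate library came from cells given 5 mM butyrate for 24 h and held 31240. Both were made with the same mouse monoclonal antibody to Pol II, and each condition also had 1 library each for H3K9ac, H3K27ac and H3K9me3. Each Pol II peak was called acetylated when it shared at least 1 bp with an H3K9ac or an H3K27ac peak of its own condition, and unacetylated otherwise. The lists give positions on the cattle assembly UMD3.1 without height or score. Each group was 1 library of 1 cell line, so differences between conditions were neither replicated nor tested, and the 95% intervals express counting error only. Control was sequenced on lane 4 and butyrate on lane 5. Effects of lane and of treatment therefore cannot be told apart.

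Pol II transcribes protein-coding genes, and it gathers at gene starts and at active enhancers before and during transcription. Acetylation of histone H3 at lysines 9 and 27 marks the same promoters and enhancers, whereas trimethylation of lysine 9 (H3K9me3) marks repressed chromatin. Butyrate is a fermentation product of rumen microbes. It inhibits the deacetylases that remove acetyl groups from histones, and it is known to slow the division of cultured cells.

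The first comparison addressed whether Pol II peaks and acetyl peaks occupied the same positions in each condition. The list became shorter after butyrate (log2 ratio of butyrate to control -0.85), but its acetylated and unacetylated members differed in opposite directions. Acetylated Pol II peaks numbered 7527 in control and 20107 after butyrate, a 2.67-fold difference (log2 ratio 1.42, 95% exact binomial interval 1.38 to 1.46). Unacetylated Pol II peaks numbered 48713 in control and 11133 after butyrate (log2 ratio -2.13, -2.16 to -2.10). Acetylated peaks were thus 13.4% of the control list (95% Wilson interval, 13.1 to 13.7) and 64.4% of the butyrate list (63.8 to 64.9). The acetyl lists themselves were larger after butyrate. H3K9ac and H3K27ac peaks together covered 50.3 Mb in control and 96.9 Mb after butyrate, or 1.89% and 3.64% of the span of the lists. With the control acetyl lists used for both, the acetylated share was 13.4% in control and 48.5% after butyrate, and with the butyrate acetyl lists for both it was 24% and 64.4%. The share was therefore higher in the butyrate Pol II list under either set of acetyl peaks.

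The acetyl classes differed in how far they changed. Pol II peaks on both marks numbered 3092 in control and 11296 after butyrate (log2 ratio 1.87, 1.81 to 1.93). Those on H3K27ac alone numbered 2227 and 7212 (1.70, 1.63 to 1.76). Those on H3K9ac alone were the exception, with 2208 in control and 1599 after butyrate (-0.47, -0.56 to -0.37). This class leaves out Pol II peaks that also met H3K27ac, whose list held 94617 peaks in control and 187475 after butyrate. Pol II peaks on H3K9ac, with or without H3K27ac, were more numerous after butyrate (log2 ratio 1.28). In control, H3K9ac and H3K27ac were met by nearly equal shares of Pol II peaks, 9.42% and 9.46%. After butyrate these shares were 41.3% and 59.2%.

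**Figure D1:**
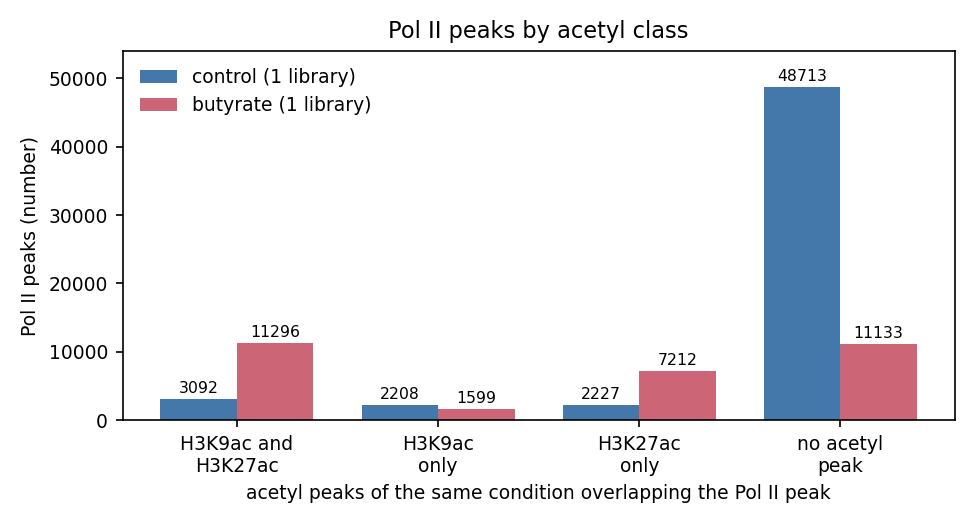
Number of Pol II peaks (vertical axis) by the acetyl peaks of the same condition that overlap them (horizontal axis), for the control and the butyrate library. Peaks without an acetyl peak number 48713 in control and 11133 after butyrate, while peaks on both marks number 3092 and 11296.

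Seen from the acetyl peaks, a larger share carried Pol II after butyrate, although fewer Pol II peaks were then available. Of H3K9ac peaks, 7.11% (95% Wilson interval, 6.93 to 7.30) carried Pol II in control and 11.2% (11.0 to 11.4) after butyrate. Of H3K27ac peaks, 5.63% (5.49 to 5.78) and 9.41% (9.28 to 9.54) did. The share was higher at longer acetyl peaks, and the shortest H3K27ac peaks differed in the other direction. Among H3K27ac peaks of 199 to 299 bp, the most numerous class, 4.75% (4.57 to 4.94) carried Pol II in control and 3.85% (3.72 to 3.99) after butyrate. Among H3K9ac peaks of 1000 to 1999 bp, 19.4% (17.9 to 21.1) carried Pol II in control and 50.7% (46.9 to 54.5) after butyrate. Among H3K27ac peaks of 2000 bp and over, 23.2% (19.9 to 26.8) of 570 carried it in control and 66.6% (63.1 to 69.9) of 748 after butyrate.

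Acetyl peaks that carried the other acetyl mark as well were compared with those that did not. After butyrate, 16.0% of H3K9ac peaks that overlapped H3K27ac carried Pol II, against 3.47% of those that did not. In control these shares were 7.18% and 7.01%, with overlapping intervals (6.94 to 7.42 and 6.73 to 7.31). Among H3K27ac peaks, those with H3K9ac carried Pol II more often in both conditions, at 7.34% (7.09 to 7.59) against 4.21% (4.04 to 4.38) in control and 18.1% against 4.76% after butyrate. Acetyl peaks present in both conditions also carried Pol II more often after butyrate than those found only after butyrate. For H3K9ac the shares were 21.5% and 6.20%, and for H3K27ac they were 18.1% and 5.28%. Control showed the same order. There, 10.1% of H3K9ac peaks present in both conditions and 4.26% of those found only in control carried Pol II. For H3K27ac the control shares were 6.41% and 4.12%. The part that acetyl peak length has in these shares was not tested.

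The position of an acetylated Pol II peak was then set against its acetyl region, meaning overlapping H3K9ac and H3K27ac peaks joined. Of the acetylated Pol II peaks, 43.5% (42.4 to 44.6) lay wholly inside such a region in control and 66.8% (66.1 to 67.4) after butyrate. The region that held an acetylated Pol II peak had a median length of 372 bp in control and 656 bp after butyrate. This was counted once per Pol II peak. All acetyl regions, counted once each, had medians of 297 bp and 317 bp. Counted in this way, the regions that held Pol II were longer at the median than all acetyl regions, by a wider margin after butyrate. The part that region length alone has in meeting a Pol II peak was not tested. Unacetylated Pol II peaks lay at a median of 17561 bp from the nearest acetyl region in control. After butyrate this distance was 2602 bp, with 34.8% of unacetylated peaks under 1 kb away, against 9.18% in control.

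Acetylated Pol II peaks were longer than unacetylated ones in both conditions. Their median length was 233 bp in control (exact binomial 95% interval, 231 to 235) and 246 bp in the butyrate list (245 to 248). Unacetylated peaks had medians of 217 bp (216 to 218) and 220 bp (218 to 221). A large part of each class lay at 199 bp, the shortest length in the lists. This part was 28.8% of acetylated and 37.8% of unacetylated peaks in control, and 21.2% and 33.0% after butyrate. Pol II peaks of at least 500 bp were few in control, with 190 acetylated and 388 unacetylated. After butyrate there were 1034 acetylated peaks (log2 ratio 2.44, 2.22 to 2.68) and 151 unacetylated peaks (-1.36, -1.64 to -1.09) of this length. The number of all Pol II peaks of at least 500 bp was higher after butyrate (log2 ratio 1.04), opposite to the whole list.

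The acetylated share was higher in longer Pol II peaks up to 999 bp. In control it was 10.5% (10.1 to 11.0) at 199 bp and 32.2% (28.5 to 36.2) at 500 to 999 bp. After butyrate it was 53.8% (52.7 to 54.9) and 87.4% (85.4 to 89.3) in the same classes. The shortest butyrate peaks were therefore acetylated more often than control peaks of 500 to 999 bp. In the class of 1000 bp and over, 6 of 7 control peaks and 66 of 78 butyrate peaks were acetylated. Unacetylated peaks of this length numbered 1 in control and 12 after butyrate (log2 ratio 3.58, 0.83 to 9.003), opposite in direction to unacetylated peaks as a whole. The part that peak length alone has in meeting an acetyl peak was not tested.

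**Figure D2:**
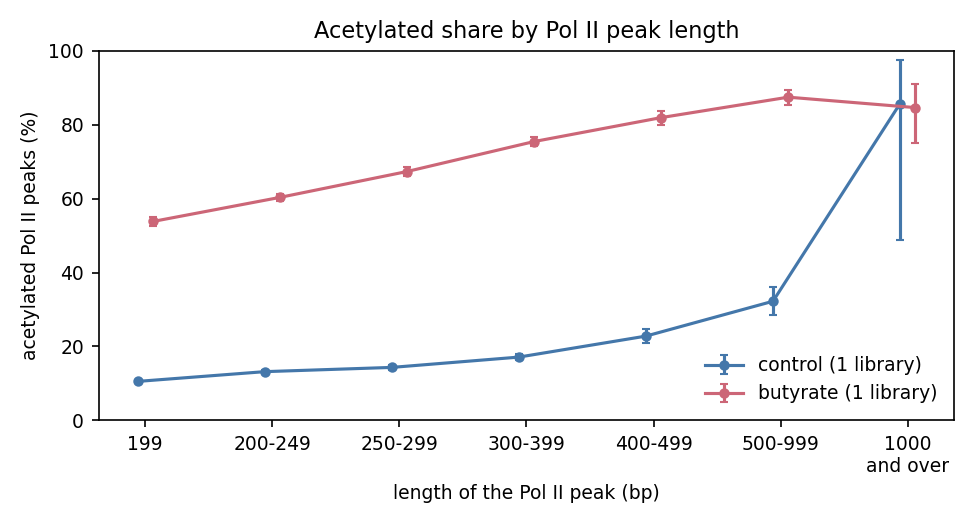
Share of Pol II peaks that are acetylated (vertical axis, percent) by peak length in bp (horizontal axis) in the control and the butyrate library, with 95% Wilson intervals. The butyrate share is above the control share in each class under 1000 bp, and the last control point rests on 7 peaks.

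The next comparison asked which Pol II positions were found in both conditions. Of all control Pol II peaks, 4.62% were met by a butyrate Pol II peak, and of all butyrate peaks 8.31% were met by a control peak, by at least 1 bp. Among control peaks the share was 19.3% (18.4 to 20.2) of acetylated and 2.35% (2.22 to 2.49) of unacetylated ones. It was 29.0% (27.4 to 30.6) for control peaks on both marks, 13.2% (11.8 to 14.7) on H3K9ac alone and 11.8% (10.5 to 13.2) on H3K27ac alone. After butyrate the acetyl classes lay closer together, with 9.53% (9.14 to 9.95) of acetylated and 6.10% (5.67 to 6.56) of unacetylated peaks met by control Pol II. Acetylated peaks made up 55.8% of the 2597 control peaks that were met, although they were 13.4% of the list.

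The acetylation of the position in both conditions separated the control peaks further. Control Pol II peaks whose position was acetylated in both conditions numbered 5877, and 22.6% of them (21.6 to 23.7) were met by butyrate Pol II. Those acetylated in control alone numbered 1650, with 7.39% met (6.23 to 8.76). Those acetylated after butyrate alone numbered 7605, with 7.61% met (7.04 to 8.23). The largest class, 41108 peaks or 73.1% of the control list, was acetylated in neither condition, and 1.38% (1.27 to 1.50) of it was met.

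Butyrate Pol II peaks lay mostly on positions that were acetylated in at least 1 condition. Of them, 13305 (42.6%) were acetylated in both, 6802 (21.8%) after butyrate alone, 1855 (5.94%) in control alone and 9278 (29.7%) in neither. Of the acetylated butyrate peaks, 66.2% (65.5 to 66.8) stood on a position that was already acetylated in control. In the other direction, 78.1% (77.1 to 79.0) of acetylated control peaks stood on a position that was still acetylated after butyrate. Most of these positions had no Pol II peak in the other condition. Beyond direct overlap, control acetylated peaks that were not met lay at a median of 5927 bp from the nearest butyrate Pol II peak, and unacetylated ones at 36294 bp.

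**Figure D3:**
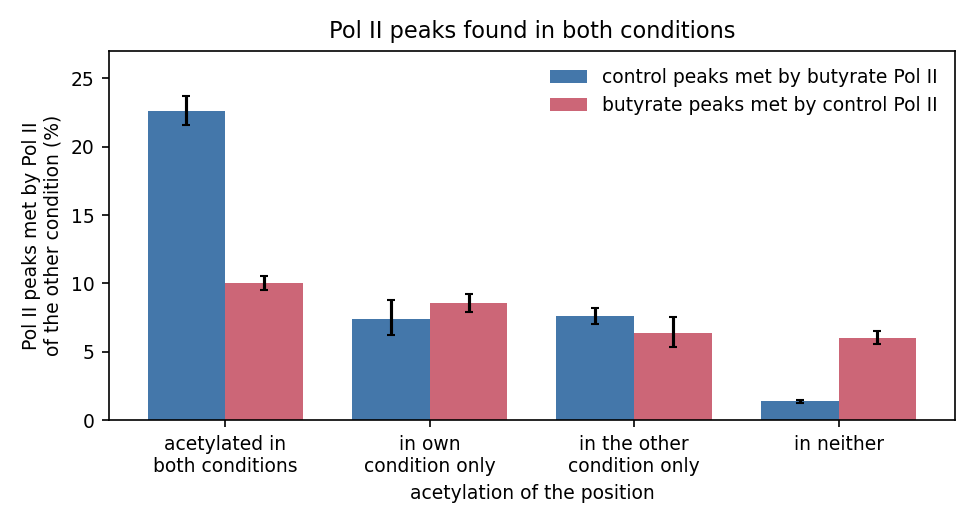
Share of Pol II peaks met by a Pol II peak of the other condition (vertical axis, percent) by the condition in which the position is acetylated (horizontal axis), with 95% Wilson intervals. Control peaks range from 1.38% where the position is acetylated in neither condition to 22.6% where it is acetylated in both.

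The H3K9me3 lists held 25628 peaks in control and 89487 after butyrate. Those of the same condition met 4.99% of control Pol II peaks and 6.65% of butyrate Pol II peaks, with the acetyl classes in opposite order. In control, 10.1% (9.48 to 10.8) of acetylated Pol II peaks overlapped H3K9me3, against 4.20% (4.02 to 4.38) of unacetylated ones. After butyrate, the share was 4.51% (4.23 to 4.81) of acetylated and 10.5% (9.94 to 11.1) of unacetylated peaks. Control H3K9me3 peaks met 4.69% (4.40 to 4.99) of acetylated and 4.34% (3.98 to 4.73) of unacetylated butyrate Pol II peaks. Butyrate H3K9me3 peaks met 10.89% (10.21 to 11.62) and 9.96% (9.7 to 10.23) of the control classes. Both pairs of intervals overlap, the second pair only narrowly. The difference between the classes was smaller with the H3K9me3 list of the other condition than with that of the same condition. H3K9me3 peaks that overlapped an acetyl peak were 14.01% of the control and 8.48% of the butyrate H3K9me3 list. Chromosomes 5 and 14 were dense in Pol II and H3K9me3 peaks. Without them, the order of the classes under the H3K9me3 list of the same condition stayed the same. The shares were then 7.35% and 2.78% in control, and 3.28% and 8.34% after butyrate, for acetylated and unacetylated peaks.

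The difference in the acetyl classes was spread over the genome. On each of the 30 nuclear chromosomes, acetylated Pol II peaks were more numerous after butyrate and unacetylated ones fewer, with intervals that did not include 0. For acetylated peaks the log2 ratio ranged from 0.47 (0.32 to 0.62) on chromosome 14 and 0.49 (0.39 to 0.60) on chromosome 5 to 2.08 (1.74 to 2.45) on chromosome 25. For unacetylated peaks it ranged from -2.54 on chromosome 20 to -0.75 on the X chromosome. Chromosomes 5 and 14 held 25.7% of acetylated and 19.6% of unacetylated control peaks, and 13.5% and 16.6% after butyrate. The X chromosome had 47 acetylated peaks in control and 96 after butyrate, and its acetylated share after butyrate was 33.0%, the lowest of the nuclear chromosomes. The next lowest was 56.1%, on chromosome 14. On the mitochondrial genome, which carries no histones, each condition had 15 Pol II peaks, of which 14 in control and 15 after butyrate were called acetylated.

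**Figure D4:**
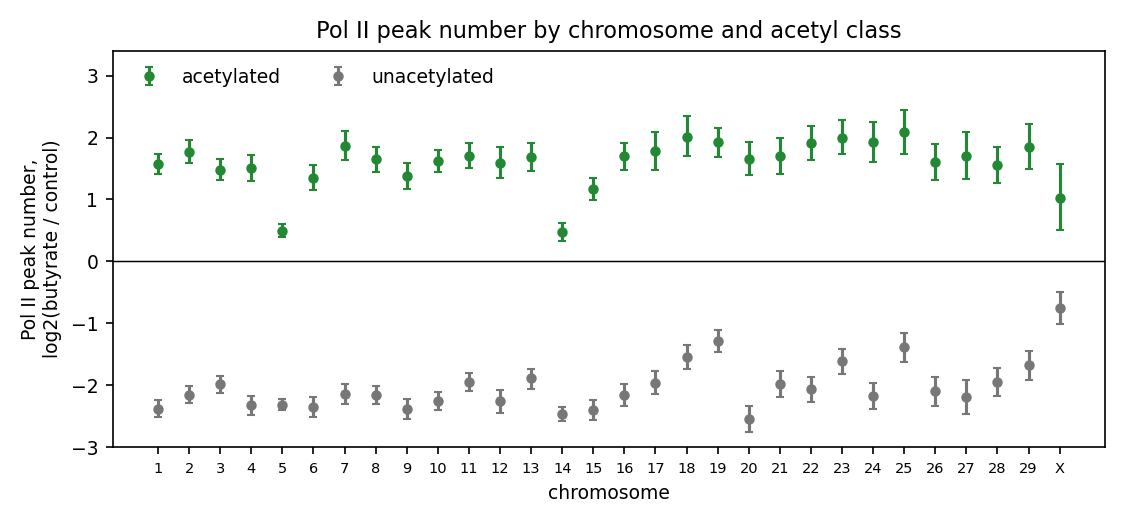
Log2 ratio of butyrate to control in the number of acetylated and unacetylated Pol II peaks (vertical axis) on each nuclear chromosome (horizontal axis), with exact binomial 95% intervals. Acetylated peaks lie above 0 and unacetylated peaks below 0 on all 30 chromosomes, with the smallest acetylated ratios on chromosomes 5 and 14.

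In windows of 1 Mb, acetylated peaks were more numerous after butyrate in 1791 of 2677 windows and less numerous in 177, while unacetylated peaks were more numerous in 101 and less numerous in 2493. The largest gain of acetylated peaks was at 80000001 to 81000000 of chromosome 10, with 11 in control and 72 after butyrate, where unacetylated peaks numbered 28 and 4. The largest drop of acetylated peaks, from 24 to 13, was at 81000001 to 82000000 of chromosome 5. The window with the largest drop of unacetylated peaks was at 93000001 to 94000000 of the same chromosome, where 77 control peaks stood against 4 after butyrate. Unacetylated peaks gained most at 45000001 to 46000000 of chromosome 7, with 4 in control and 17 after butyrate.

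The longest control peak, acetylated on both marks, was on chromosome 19 from 11030486 to 11032810 (2325 bp). A butyrate peak of 3369 bp, from 11029842 to 11033210, contained it. The H3K9ac peak there was 3082 bp long in control, and after butyrate 2 H3K9ac peaks of at most 351 bp remained under Pol II, next to an H3K27ac peak of 2228 bp. The second longest acetylated control peak, on chromosome 29 from 44342191 to 44343401 (1211 bp), was met by a butyrate Pol II peak of 2088 bp. The third, on chromosome 2 from 111804011 to 111805115 (1105 bp), lay on an H3K9ac peak of 214 bp and on 2 H3K9me3 peaks, and was met by a butyrate Pol II peak of 357 bp. A further site acetylated in both conditions, on chromosome 14 from 10192606 to 10193485 (880 bp in control), held a butyrate Pol II peak of 514 bp and an H3K27ac peak of 2038 bp.

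After butyrate the longest Pol II peak was on chromosome 29 from 44278687 to 44284186 (5500 bp), where control had 4 Pol II peaks of at most 617 bp and H3K27ac peaks of up to 1275 bp. Its acetyl support after butyrate was a single H3K27ac peak of 275 bp. The third longest, on chromosome 9 from 73304602 to 73307510 (2909 bp), carried 3 H3K9ac and 5 H3K27ac peaks, and control had 1 Pol II peak of 306 bp there. The 3 longest unacetylated peaks after butyrate stood where control had acetyl peaks. The longest, on chromosome 13 from 31944926 to 31947391 (2466 bp), had no control Pol II peak but an H3K9ac peak of 269 bp and an H3K27ac peak of 280 bp in control. The second, on chromosome 23 from 28088422 to 28090348 (1927 bp), had an H3K27ac peak of 237 bp in control. The third, on chromosome 29 from 44337473 to 44339280 (1808 bp), had 2 Pol II peaks, 2 H3K9ac peaks of up to 649 bp and an H3K27ac peak of 990 bp in control. In control, the longest unacetylated peaks were on chromosome 17 from 52465054 to 52466055 (1002 bp) and on chromosome 14 from 72158666 to 72159511 (846 bp) and from 13155946 to 13156790 (845 bp). The first of these was met by 2 butyrate Pol II peaks of at most 396 bp and by H3K9me3 in both conditions, and the others had no butyrate Pol II peak.

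Gene starts were examined last, to ask whether Pol II stood at promoters in each condition. Positions on UMD3.1 were available for 1188 named genes that the study had listed as changed by butyrate in rumen epithelial primary cells, 875 as higher (the higher list) and 313 as lower (the lower list). These are selected genes from other cells, and not all genes of the genome. Within 1 kb of the start, 23 of the 1188 genes (1.94%, 95% Wilson interval 1.29 to 2.89) had a Pol II peak in control and 103 (8.67%, 7.20 to 10.4) after butyrate. Both conditions had a peak at 9 genes, control alone at 14 and butyrate alone at 94. In the lower list, 13 genes (4.15%, 2.44 to 6.97) had Pol II at the start in control and 59 (18.8%, 14.9 to 23.6) after butyrate. In the higher list, 10 genes (1.14%, 0.622 to 2.09) and 44 genes (5.03%, 3.77 to 6.68) did. Genes of the lower list thus had Pol II at their starts in larger shares than those of the higher list, in both conditions.

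The control library had no local maximum of Pol II at these starts. In the lower list, 4.15% of starts had control Pol II within 1 kb, against 10.2% (7.33 to 14.1) of windows centred 2 kb downstream and 4.79% (2.92 to 7.75) of those 50 kb upstream. After butyrate the start was the highest point, with 18.8% against 9.90% at 2 kb downstream and 4.79% at 50 kb upstream. In the higher list the control share at the start was 1.14%, below the 5.14% found 50 kb upstream. The butyrate share at the start was 5.03% (3.77 to 6.68), against 4.69% at 50 kb upstream. It was above the 2.17% (1.39 to 3.37) found both 2 kb upstream and 2 kb downstream. Acetyl peaks were used to check the gene positions against the lists. Control H3K9ac met 52.1% of lower-list starts and 6.71% of windows 50 kb upstream, but in the higher list these shares were 6.86% and 6.29%, so that the check gave no contrast for most of the genes. After butyrate, H3K9ac met 31.9% of lower-list starts and 6.40% of higher-list starts. H3K27ac met 48.6% of lower-list starts in both conditions, and in the window 2 kb downstream it met 26.8% in control and 52.1% after butyrate. In the higher list, H3K27ac met 8.80% of starts in control, against 7.77% of windows 50 kb upstream, and 9.71% of starts after butyrate.

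**Figure D5:**
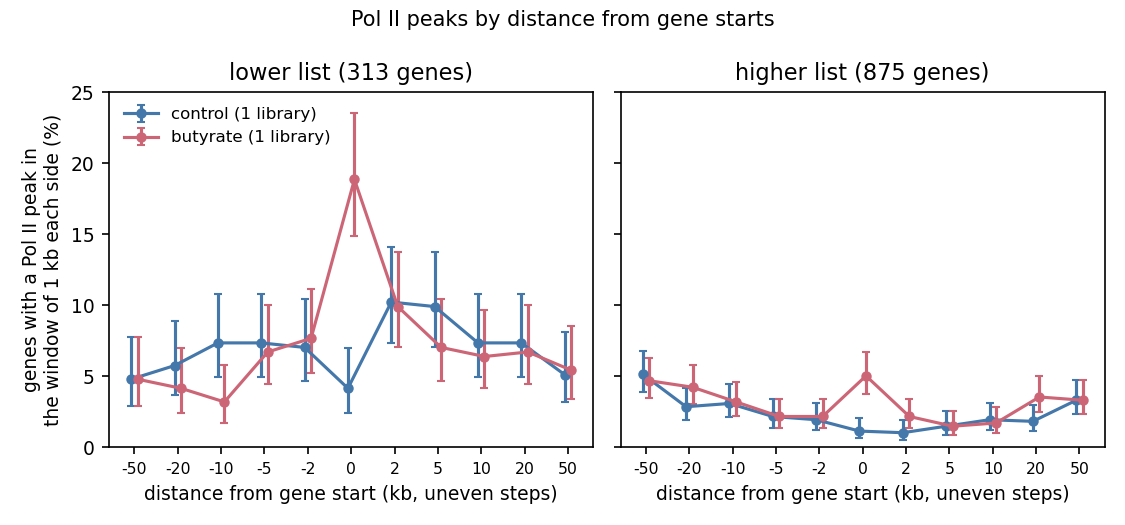
Share of genes with a Pol II peak in a window reaching 1 kb to each side (vertical axis, percent) by the distance of the window from the gene start (horizontal axis, kb, negative upstream, uneven steps), with 95% Wilson intervals. After butyrate the lower list has its highest value, 18.8%, at the start, while the control value there is 4.15%.

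Starts with and without an acetyl peak were then compared. In the lower list, 51 of 167 starts with a butyrate acetyl peak carried Pol II (30.5%, 24.1 to 37.9), and 8 of 146 without one did (5.48%, 2.80 to 10.4). In the higher list these were 28 of 108 (25.9%, 18.6 to 34.9) and 16 of 767 (2.09%, 1.29 to 3.36). In control, 9 of 188 acetylated lower-list starts had Pol II (4.79%, 2.54 to 8.85) and 4 of 125 unacetylated ones (3.20%, 1.25 to 7.94), a difference within the intervals. In the control higher list, 4 of 98 acetylated starts (4.08%, 1.60 to 10.03) and 6 of 777 unacetylated ones (0.772%, 0.354 to 1.67) had Pol II. The share was higher at acetylated starts there, but it rested on few genes and the intervals overlapped narrowly. Most starts with Pol II after butyrate alone were acetylated already in control. Of the 54 such genes of the lower list, 50 had an acetyl peak at the start in control and 47 after butyrate, and only 2 had one after butyrate alone. Of the 40 such genes of the higher list, 26 had one in control and 25 after butyrate, with 2 after butyrate alone.

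The genes with the longest Pol II peaks at the start after butyrate alone were led by HMGB2, which encodes a DNA-bending chromatin protein. Its Pol II peak, on chromosome 8 from 5584765 to 5586087 (1323 bp), covered the gene start. The H3K9ac peak at this start was 1576 bp long in control and 229 bp after butyrate, and the longest H3K27ac peaks were 1617 bp and 812 bp. ELF3, an epithelial transcription factor of the ETS family, had a Pol II peak over its start on chromosome 16 from 70826624 to 70827341 (718 bp), where the longest H3K27ac peak was 308 bp in control and 208 bp after butyrate. The next were DIAPH3 (532 bp), which encodes a formin that builds actin filaments, LSM3 (506 bp), a part of the RNA splicing machinery, and SYNCRIP (489 bp), an RNA-binding protein. CKS2 (483 bp), a subunit of cyclin-dependent kinases, TNFRSF12A (482 bp), the receptor of the cytokine TWEAK, and C20orf96 (477 bp) followed. ELF3 and C20orf96 were of the higher list and the other 6 of the lower list, and at all 8 starts an acetyl peak was present in both conditions.

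Genes with Pol II at the start in both conditions had peaks of under 400 bp in each. HSD11B1, which encodes the enzyme that activates cortisone to cortisol, had 2 control peaks of up to 224 bp and a butyrate peak of 399 bp on chromosome 16 from 75508916 to 75509314, while its longest H3K9ac peak was 281 bp in control and 923 bp after butyrate. PARPBP, a regulator of homologous recombination, had Pol II peaks of 362 bp in control and 389 bp after butyrate, on chromosome 5 from 66292281 and from 66292294. HMMR, a hyaluronan receptor that also works at the mitotic spindle, had peaks of 349 bp and 310 bp. These did not overlap, and started at 77272027 in control and at 77270127 after butyrate. ACPP, an acid phosphatase, had 325 bp and 199 bp, and FAR2, a fatty acyl-CoA reductase, had the same lengths. Of the 8 genes named here, FAR2 alone had no acetyl peak at its start, and it had an H3K9me3 peak there in each condition. TMEM86A had peaks of 199 bp and 269 bp, MYBL1, a transcription factor of the MYB family, 238 bp and 220 bp, and NCAPH, a condensin subunit, 199 bp and 237 bp. The control peak of MYBL1 did not overlap the butyrate peak given here, the longest of 2.

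Among genes with Pol II at the start in control alone, ESCO2, an acetyltransferase of cohesin, had the longest peak, on chromosome 8 from 10884461 to 10884809 (349 bp). Its start had H3K9ac of 339 bp in control, and H3K9ac of up to 484 bp and H3K27ac of up to 641 bp after butyrate. ASPM, a spindle pole protein, had a Pol II peak of 336 bp, and TTK, a kinase of the spindle checkpoint, one of 242 bp. Both starts were acetylated in both conditions. MGME1, a nuclease of mitochondrial DNA, had a peak of 260 bp and MTFR2, a regulator of mitochondrial fission, one of 222 bp. DLGAP3, a scaffold protein of synapses, NIM1K, a protein kinase, and BST1, an enzyme that makes cyclic ADP-ribose, had peaks of 281, 225 and 212 bp at starts without an acetyl peak in either condition.

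The function lists were read against the 1.94% and 8.67% of all listed genes. Mitosis genes had Pol II at the start at 3 of 68 genes in control (4.41%, 1.51 to 12.2) and at 13 after butyrate (19.1%, 11.5 to 30.01), close to the shares of the lower list. The longest of these peaks were at ASPM in control, and at the condensin genes SMC4 (332 bp) and SMC2 (291 bp) and the centromere gene CENPS (327 bp) after butyrate. An acetyl peak stood at 52 mitosis starts in control (76.5%) and at 44 after butyrate (64.7%). In the lower list these shares were 60.1% and 53.35%, and over all listed genes 24.1% and 23.15%. DNA replication genes had Pol II at 1 of 33 starts in control and 3 after butyrate. MCM8, a helicase of recombination, had a control peak of 199 bp. GMNN, the inhibitor of origin licensing, had a butyrate peak of 413 bp at a start with no acetyl peak in either condition, TOPBP1 had one of 216 bp and PCNA, the sliding clamp of DNA polymerase, one of 199 bp. Of 24 DNA repair genes, none had control Pol II and BLM, a helicase, had a butyrate peak of 199 bp, with H3K27ac of up to 1343 bp after butyrate and no acetyl peak in control.

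Epithelial genes had Pol II at 0 of 23 starts in control and at 4 after butyrate (17.4%, 6.98 to 37.1), among them ELF3, the tight junction gene CLDN4 (306 bp) and S100A14 (227 bp). Of the epithelial and kidney markers of MDBK cells given here, CLDN4 had butyrate Pol II, while EPCAM, KRT19, PAX8 and ST14 had no Pol II peak at the start in either condition. Among these 5 genes, acetyl peaks were present at EPCAM in control and at PAX8 after butyrate. No start of the 34 neuronal and synaptic genes or of the 28 ion channel genes had Pol II in either condition, and acetyl peaks stood at 2 and 1 of them in control. The intervals of these shares after butyrate, 0 to 10.2% and 0 to 12.1%, include the 8.67% of all listed genes. Among 32 solute carrier genes, SLC38A4, an amino acid transporter, had a control peak of 199 bp, and no start had butyrate Pol II (0 to 10.7%).

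Inside gene bodies, beyond 1 kb from the start, the lower list held 43.8 Pol II peaks per Mb in control and 26.1 after butyrate, above the 21.1 and 11.7 of the whole span of the lists. The higher list held 17.0 and 11.2. As in the whole list, the acetylated share was larger after butyrate, with 27.2% of 430 peaks in control and 78.5% of 256 after butyrate in the lower list, and 15.2% of 610 and 61.8% of 400 in the higher list. Pol II peaks in gene bodies were thus fewer after butyrate in both lists, as they were over the whole span. Acetylated peaks in gene bodies were more numerous after butyrate, however. They numbered 117 in control and 201 after butyrate in the lower list, and 93 and 247 in the higher list. Peaks at gene starts were also more numerous after butyrate.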

How the data were processed

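According to the methods, the authors removed reads that failed the quality filter of the sequencer, aligned the rest with BWA to UMD3.1.1 (UMD3.1 in the labels), and called peaks in each library with MACS2 against 1 input library, which was not analysed here. The deposited peak lists hold chromosome, start and end in bp, with no score, so the unit of the values is a position and depth is unknown here. Positions are printed counted from 1, with starts in the lists taken as counted from 0. Overlaps of at least 1 bp were computed with Python 3.11.15, numpy 2.4.6 and scipy 1.17.1, and checked on lists with known overlaps. Gene starts on UMD3.1 came from the gene tables of the study (position, strand, name and list only), and 78 genes without a usable name were left out. Members, gene lists and comparisons were chosen with earlier results of these data known. Named by rule were the 3 longest peaks of each class, the windows of largest change, the 8 genes with the longest peaks per state and up to 4 per function list. No test was run, since each group had 1 library. No sequences are shown, since no genome was used here. Of the named genes and markers, 1 is not reported here.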

Additional observations from a re-analysis of the deposited data

Results flagged for a closer look

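The numbers of acetylated and of unacetylated Pol II peaks changed in opposite directions between control and butyrate. The log2 ratio of butyrate to control was 1.42 for acetylated and -2.13 for unacetylated peaks. The difference between these ratios was not tested, because each condition had 1 library.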

How the results depend on the processing

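No paired analysis was possible because neither condition had more than 1 library per antibody. Of 74 alternative values, 11 stayed inside the 95% interval of the value reported, 62 moved out of it and 1 changed sign. Some of the 11 could not move, because the setting left the lists of that condition unchanged. Such were the control share with control acetyl lists or with the longest acetyl peaks in lists of equal size. The same held for the butyrate share with butyrate acetyl lists or with the longest Pol II peaks in lists of equal size. In every alternative run, the acetylated share was higher in the butyrate than in the control list, acetylated peaks were more numerous after butyrate and unacetylated ones fewer. The total number of Pol II peaks changed sign with a minimum length of 500 bp (log2 ratio 1.04, the cause was not tested), and was -0.96 with peaks under 1 kb apart joined and -0.75 without chromosomes 5 and 14. The acetylated share in control and after butyrate was 10.6% and 58.8% with at least 50% of the Pol II peak covered, 21.3% and 76.8% with an acetyl peak within 1 kb, 32.9% and 87.3% in Pol II peaks of at least 500 bp, and 4.40% and 39.4% with acetyl peaks of at least 500 bp. It was 9.42% and 41.3% with H3K9ac only, 9.46% and 59.2% with H3K27ac only, and 12.5% and 65.2% without chromosomes 5 and 14. With the longest acetyl peaks in lists of equal size the butyrate share was 54.7%, with control acetyl lists 48.5%, and with the longest Pol II peaks in lists of equal size the control share was 15.5%, and with butyrate acetyl lists 24.0%. The log2 ratios of acetylated and unacetylated peaks were, in the same order of settings, 1.62 and -1.96, 1.00 and -2.61, 2.44 and -1.36, 2.31 and -1.50, 1.28 and -1.47, 1.80 and -2.00, and 1.64 and -2.08. They were 1.18 and -1.78 with the longest acetyl peaks, 2.06 and -1.25 with the longest Pol II peaks, 1.01 and -1.60 with control acetyl lists and 0.58 and -1.94 with butyrate acetyl lists. The shares of acetylated and unacetylated control peaks met by butyrate Pol II were 13.6% and 1.50% with 50% of the peak covered, 33.9% and 5.72% within 1 kb, 13.2% and 0.773% at 500 bp and over, and 17.6% and 1.96% without chromosomes 5 and 14. Without peaks at the shortest length, median lengths of acetylated and unacetylated peaks were 261 and 251 bp in control and 270 and 245 bp after butyrate, and with 50% coverage the acetylated control median was 230 bp and the unacetylated butyrate median 222 bp. Listed gene starts with Pol II in control and after butyrate were 1.09% and 6.57% within 500 bp, 4.38% and 11.5% within 2 kb, and 0.505% and 2.61% with peaks of at least 300 bp. Peak number rises with read depth, which these lists do not hold, so a position without a peak cannot be called free of Pol II.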
